A study of Mus musculus with 12 samples.

Results

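Pik3r6, Gng13, Adgrg2, Slc6a7, C1qtnf3, Nat8f3 and Iqgap2 are 7 of 18193 measured genes. They were chosen by their log2 values: each was called lower in dermal fibroblasts of inflamed transgenic mouse skin than in those of wild-type skin. The questions here are whether they are lower still in fibroblasts taken beside papillomas, and whether different probe sets of a gene give the same answer. In papilloma-associated fibroblasts Pik3r6 and Nat8f3 fell further on their main probe sets, C1qtnf3 rose to values that overlapped those of the wild type, and the other 4 genes did not pass the test against inflamed skin. Neither fall was called on the other probe set of its gene, and both calls were lost when 1 array of inflamed skin was left out. The probe sets of Gng13 disagreed, with the other one close to dim in every group, WT included. The genes were proposed as lost in transgenic skin, but C1qtnf3 was not low in papilloma-associated skin. On their main probe sets the group means of Gng13, Slc6a7, C1qtnf3 and Nat8f3 were not dim in any group.

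RNA was measured on 12 Affymetrix arrays of sorted fibroblasts from back skin of 7-week-old male mice. The 3 groups of 4 arrays were Pap (papilloma-associated skin of InvEE mice), InvEE (inflamed skin of InvEE mice) and WT (normal skin of wild-type mice). All mice, WT included, carried a PDGFRα-H2B-eGFP allele, which labels nuclei of cells with an active gene for the PDGF receptor alpha, and GFP-positive cells were collected. InvEE mice are known to express an activated MEK1 kinase from the involucrin promoter, which works in the differentiating epidermis, so the fibroblasts themselves are not the cells that the transgene targets. Whether the 4 samples of a group were different animals is not in the labels, so a p-value here speaks only of spread among these samples, part of which may be technical. In sorted bulk RNA, fewer cells of a type and less RNA per cell cannot be told apart.

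Values are log2 expression values after quantile normalization, and group means are given ± standard deviation (SD, n = 4). Differences are on the log2 scale with their standard error (SE) from limma, a linear model fitted to all genes and all 12 arrays. Genes with a Benjamini-Hochberg adjusted p under 0.05, adjusted over 18193 genes, are named as called. A level under 6.73, below which the lowest 40% of gene means lay, is called dim. General fibroblast markers were high: Col1a1 lay between 14.04 and 14.55 over the 12 arrays, and none of 12 such markers was dim in any group. Pdgfra lay between 9.26 and 11.26, but the cells were sorted on its reporter, so its level is no check of the label. The poly-A spike controls, RNA added to each sample during preparation, differed between groups, with array means of 9.78 to 12.5 in Pap, 7.76 to 8.6 in InvEE and 9.24 to 12.24 in WT. The 3′ minus 5′ difference of Gapdh, which grows as RNA degrades, spanned 2.29 to 3.76 in Pap, 1.62 to 3.37 in InvEE and 1.59 to 2.28 in WT. With 4 arrays in a group, their number sets how precise a value can be.

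The 7 genes have different jobs. Pik3r6 encodes an adaptor subunit of phosphoinositide 3-kinase gamma, through which beta-gamma dimers of G proteins activate the kinase, and Gng13 encodes a gamma subunit of such dimers, best known from taste and smell cells. Adgrg2 encodes an adhesion G protein-coupled receptor known from the epididymis. Slc6a7 encodes a proline transporter known from the brain, C1qtnf3 a secreted relative of complement C1q and adiponectin known from cartilage and fat, Nat8f3 a member of the N-acetyltransferase 8 family, and Iqgap2 a scaffold protein that binds calmodulin. In the RefSeq table of assembly GRCm38.p6 the 7 genes lie on 7 different chromosomes, and Nat8f3 lies in a cluster of its own family, next to Nat8f7 and Nat8f6.

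The choice rested on InvEE against WT, so adjusted p-values of the 7 genes there are a description and not a test of that contrast. In it 50 genes were called lower, or 0.275% of all genes. Of these, 9 had a log2 difference at or below -2.31, and the 7 genes are among these 9. The 2 not included were Gpha2 (-3.04) and 2310034O05Rik (-2.85). The member with the smallest difference was Adgrg2 (-2.31), and the next gene below it was Plin4 (-1.97). All 7 were called lower by the choice itself, and on the main probe set of each gene every InvEE array lay below every WT array, a pattern shown by 10.2% of all genes. The calls behind the choice changed with the arrays and the model used. With each array's spike level in the model 0 of the 7 were called lower (limma, adjusted p 0.233 to 0.29), and 0 were without InvEE array 1 (0.0594 to 0.0984), InvEE array 2 (0.0778 to 0.12) or WT array 1 (0.0588 to 0.111). In each of these 4 fits all 7 were lower at an unadjusted p under 0.05. All InvEE arrays had lower spike levels than all WT and Pap arrays, so spike level and group cannot be told apart in the spike fit. Without WT array 2 the count was 1, and without InvEE array 3 or WT array 4 it was 4. It was also 4 when the 8 arrays of this contrast were fitted alone or the replicate number was a block. Without InvEE array 4 or Pap array 1 the count was 6, and without Pap array 2 or 3 it was 5.

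**Figure D1:**
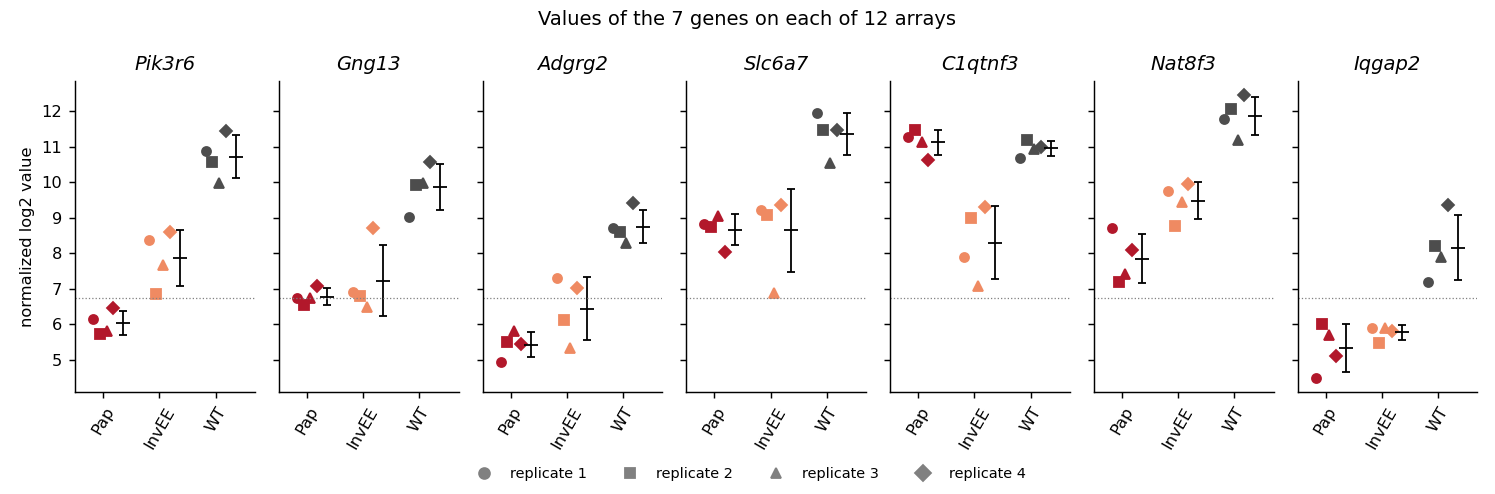
Normalized log2 values of the 7 genes on each array, with replicates as symbols and the group mean ± SD (n = 4) as a black bar. The dotted line marks the dim limit of 6.73. Pap arrays lie below all InvEE arrays for Pik3r6 and Nat8f3 and above them for C1qtnf3, where they overlap WT arrays.

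Pik3r6 fell further beside papillomas. Its log2 values were 6.14, 5.72, 5.82 and 6.46 in Pap, 8.38, 6.84, 7.66 and 8.59 in InvEE, and 10.89, 10.58, 9.98 and 11.43 in WT. The 3 groups did not overlap. All arrays of Pap lay below all of InvEE in 6.66% of genes, and below all of WT in 6.56%. The Pap mean (6.04 ± 0.34) was dim, where the InvEE mean was 7.87 ± 0.79 and the WT mean 10.72 ± 0.60. Against InvEE the gene fell by 1.83 ± 0.39 in Pap (SE; 3.55-fold lower; limma, adjusted p = 0.0158). Against WT the difference was -4.68 ± 0.39 in Pap and -2.85 ± 0.39 in InvEE. The main probe set of Pik3r6 carries the suffix _s_, which Affymetrix gives to probe sets that match several transcripts, and without such probe sets the gene is read from its other one, with a difference of -0.69 that was not called (limma, adjusted p = 0.129). Without InvEE array 1 the difference from InvEE was -1.66 and missed the threshold (limma, adjusted p = 0.0578).

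Nat8f3 fell further as well. Its values were 8.71, 7.20, 7.41 and 8.08 in Pap, 9.75, 8.77, 9.45 and 9.96 in InvEE, and 11.77, 12.05, 11.18 and 12.45 in WT. Again the 3 groups did not overlap, although the highest Pap array and the lowest InvEE array were close, and no group mean was dim (7.85 ± 0.69 in Pap, 9.48 ± 0.52 in InvEE and 11.86 ± 0.54 in WT). Nat8f3 fell by 1.63 ± 0.37 in Pap against InvEE (SE; 3.09-fold lower; limma, adjusted p = 0.0234). The differences from WT were -4.01 ± 0.37 in Pap and -2.38 ± 0.37 in InvEE. This call was lost when any of 4 arrays was left out: Pap array 2 (-1.41; limma, adjusted p = 0.0566), Pap array 3 (-1.48; 0.0509), InvEE array 1 (-1.54; 0.0768) or InvEE array 4 (-1.47; 0.0718). The Nat8 genes are close copies of each other, so its probes may also bind their transcripts, and 1 further probe set that the annotation pairs with Nat8f3 and its neighbours together was not used.

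C1qtnf3 went the other way. Its values were 11.27, 11.46, 11.12 and 10.62 in Pap, 7.88, 8.98, 7.07 and 9.29 in InvEE, and 10.67, 11.19, 10.93 and 11.00 in WT. All Pap arrays lay above all InvEE arrays, as in 14.5% of genes, and the Pap and WT arrays overlapped. The InvEE arrays were the most scattered, with means of 11.12 ± 0.36 in Pap, 8.30 ± 1.02 in InvEE and 10.95 ± 0.22 in WT. C1qtnf3 rose by 2.81 ± 0.40 in Pap against InvEE (SE; 7.02-fold higher; limma, adjusted p = 0.00162), and its difference from WT was 0.17 ± 0.40 in Pap and -2.64 ± 0.40 in InvEE. The call held when any 1 of the 12 arrays was left out (log2 differences between 2.40 and 3.14; limma, adjusted p at most 0.00839). Adding each array's spike level to the model gave a difference of 3.22 (limma, adjusted p = 0.0516). The spike controls were lowest in the same group as C1qtnf3, InvEE. Markers of the dermal papilla and dermal sheath moved opposite to it: the mean log2 level of these 13 genes was 6.89 to 7.83 on Pap arrays, 9.36 to 10.74 on InvEE arrays and 6.72 to 8.51 on WT arrays. Of them 10 were called lower and 0 higher in Pap against InvEE (limma, 11 lower and 0 higher at an unadjusted p under 0.05). In InvEE against WT 0 were called in either direction (limma, 12 higher and 0 lower at an unadjusted p under 0.05). Sox2 was dim in all 3 groups, Corin and Prom1 in Pap and WT, and Rspo3 and Wif1 in Pap. Their part in the result was not tested.

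Adgrg2 was lower in Pap than in InvEE without passing the test. Its values were 4.94, 5.51, 5.81 and 5.45 in Pap, 7.29, 6.11, 5.34 and 7.02 in InvEE, and 8.71, 8.60, 8.28 and 9.40 in WT. InvEE array 3 fell inside the Pap range, and the other 3 InvEE arrays lay above it. The difference between Pap and InvEE was -1.01 ± 0.39 (SE; 95% confidence interval -1.87 to -0.16; limma, adjusted p = 0.131, range over 8 other settings 0.0513 to 0.307). Without InvEE array 3 it was -1.38 and was called (limma, adjusted p = 0.0338). The differences from WT were -3.32 ± 0.39 in Pap and -2.31 ± 0.39 in InvEE. The Pap mean (5.43 ± 0.36) and the InvEE mean (6.44 ± 0.89) were dim, against a WT mean of 8.75 ± 0.47.

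Gng13, Iqgap2 and Slc6a7 had small differences between Pap and InvEE, with intervals that leave room for changes in either direction. Gng13 had 6.74, 6.55, 6.75 and 7.09 in Pap, 6.91, 6.79, 6.50 and 8.71 in InvEE, and 9.01, 9.92, 9.99 and 10.57 in WT. InvEE array 4 stood nearer to the WT arrays than the other 3 InvEE arrays did, and the Pap and InvEE ranges overlapped. The difference of Gng13 was -0.44 ± 0.44 (SE; 95% confidence interval -1.41 to 0.52; limma, adjusted p = 0.526), or 0.05 without InvEE array 4 (limma, adjusted p = 0.934). Its distance from WT was -3.09 ± 0.44 in Pap and -2.65 ± 0.44 in InvEE. No group mean of Gng13 was dim, at 6.78 ± 0.23 in Pap, close to the limit, 7.23 ± 1.01 in InvEE and 9.87 ± 0.64 in WT.

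Iqgap2 had 4.50, 6.0, 5.70 and 5.11 in Pap, 5.90, 5.47, 5.89 and 5.80 in InvEE, and 7.19, 8.21, 7.88 and 9.36 in WT. The Pap and InvEE arrays overlapped and both means were dim, at 5.33 ± 0.67 in Pap and 5.77 ± 0.20 in InvEE, against 8.16 ± 0.91 in WT. The difference between Pap and InvEE was -0.44 ± 0.42 (SE; 95% confidence interval -1.35 to 0.47; limma, adjusted p = 0.505). At values this low a further fall may be below what the array can show.

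Slc6a7 had 8.83, 8.74, 9.04 and 8.04 in Pap, 9.22, 9.08, 6.89 and 9.35 in InvEE, and 11.95, 11.46, 10.53 and 11.46 in WT. InvEE array 3 lay far below the other 3, and the Pap arrays fell between it and them. The difference was 0.02 ± 0.50 (SE; 95% confidence interval -1.06 to 1.11; limma, adjusted p = 0.981), and -0.56 without InvEE array 3 (limma, adjusted p = 0.301). No group mean of Slc6a7 was dim, at 8.66 ± 0.44 in Pap, 8.64 ± 1.17 in InvEE and 11.35 ± 0.59 in WT.

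Over the 7 genes, 2 were called lower in Pap against InvEE, where 3.04% of all genes were, and 1 was called higher, where 3.67% were (6.71% in either direction). Their median difference was -0.44, against 0.12 for all genes. The InvEE arrays took part in choosing the genes, and a choice for low InvEE values tends to raise Pap minus InvEE; the 2 falls lie against that tendency and the rise of C1qtnf3 lies with it. Shifting each array by its ribosomal protein genes moved the median of all genes to 0.65, and then 96.5% of the genes called in this comparison were higher in Pap, against 54.7% without the shift and 66.8% with arrays shifted to a common median. Under the ribosomal shift Pik3r6 and Nat8f3 were still called lower and C1qtnf3 higher, while Gng13 and Iqgap2 turned to 0.09 each. In Pap against WT 6 of the 7 genes were called lower and C1qtnf3 was not, where 4.8% of all genes were called lower; since the WT arrays helped to choose the genes, nothing is read from this count.

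**Figure D2:**
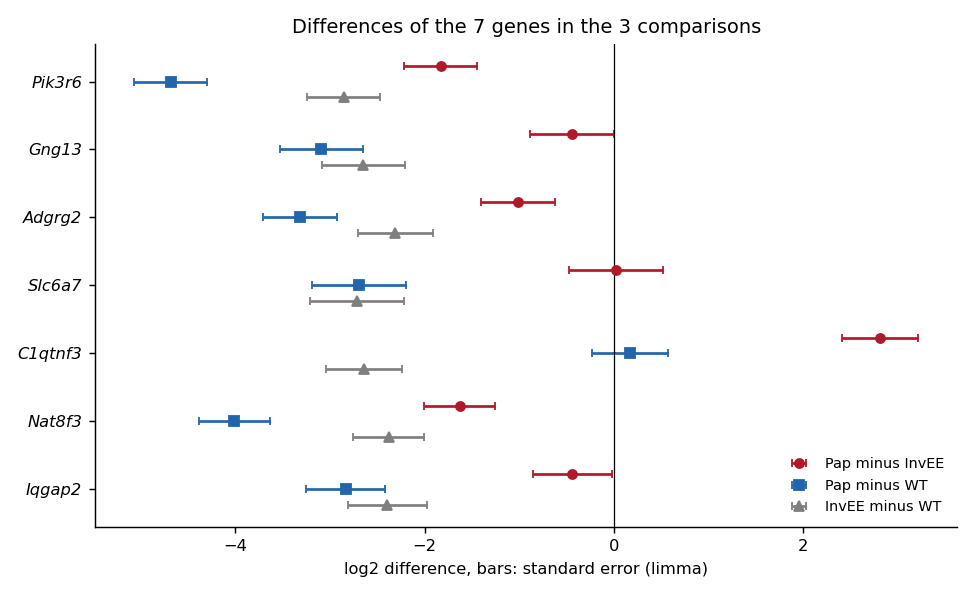
Log2 differences of the 7 genes with their SE from limma (n = 4 arrays per group) in Pap minus InvEE (red circles), Pap minus WT (blue squares) and InvEE minus WT (grey triangles). The last contrast chose the genes, and the first and second share arrays with it. In Pap minus InvEE, Pik3r6 (-1.83) and Nat8f3 (-1.63) lie to the left of 0 and C1qtnf3 (2.81) to the right.

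Some arrays were extreme for several of the genes. WT array 4 held the highest WT value for 5 of the 7 genes and InvEE array 4 the highest InvEE value for 5. InvEE array 3 held the lowest InvEE value for 4 genes and WT array 3 the lowest WT value for 4. In Pap no array was highest for more than 2 genes, and Pap array 2 was lowest for 3, Pik3r6 and Nat8f3 included. For these 2 called genes InvEE array 4 held the highest InvEE value.

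The 7 genes had 12 probe sets with a single gene symbol, 2 each for 5 genes and 1 each for Slc6a7 and C1qtnf3, for which agreement could not be examined. In a fit over 45037 probe sets, 2 of the 12 were called lower in Pap against InvEE, where 2.82% of all probe sets were. They were the main probe sets of Pik3r6 (limma, adjusted p = 0.0198) and Nat8f3 (limma, adjusted p = 0.0281), so neither fall was called on a second probe set. In InvEE against WT, the contrast that chose the genes, Pik3r6 alone was called lower on its other probe set (limma, adjusted p = 0.0189). Those of Nat8f3 (limma, adjusted p = 0.099), Adgrg2 (0.176), Iqgap2 (0.225) and Gng13 (0.413) were not. The main probe set of Slc6a7 missed the threshold in this fit (limma, adjusted p = 0.0506). All these probe sets were read on the arrays that chose the genes. Their calls in InvEE against WT therefore compare probe sets and are no separate support for a fall.

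For Pik3r6 both probe sets kept the 3 groups apart. The other probe set read 5.65, 5.33, 5.41 and 5.69 in Pap, 6.32, 5.89, 5.92 and 6.70 in InvEE, and 8.52, 8.26, 7.74 and 9.02 in WT. Its Pap minus InvEE difference was -0.69 ± 0.26 (SE; limma, adjusted p = 0.141), smaller than on the main probe set, and both means were dim on it. Its differences from WT were -2.86 ± 0.26 in Pap and -2.18 ± 0.26 in InvEE.

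The other Nat8f3 probe set read 8.05, 7.98, 7.48 and 7.20 in Pap, 8.44, 7.82, 8.57 and 9.09 in InvEE, and 9.72, 9.55, 10.08 and 11.39 in WT. InvEE array 2 lay among the Pap arrays, and the difference of -0.80 ± 0.39 had the same sign as on the main probe set but was not called (SE; limma, adjusted p = 0.23). The differences from WT were -2.51 ± 0.39 in Pap and -1.71 ± 0.39 in InvEE. For Adgrg2 the sign was the same on both: its other probe set had means of 5.19 ± 0.90 in Pap, 6.64 ± 0.76 in InvEE and 8.24 ± 0.61 in WT, and a Pap minus InvEE difference of -1.46 ± 0.48 (SE; limma, adjusted p = 0.0991). On that probe set the differences from WT were -3.05 ± 0.48 in Pap and -1.60 ± 0.48 in InvEE, and the Pap and InvEE means were dim.

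The probe sets of Gng13 disagreed, and those of Iqgap2 differed in size. The other Gng13 probe set was nearly flat, with means of 6.76 ± 0.21 in Pap, 6.52 ± 0.33 in InvEE and 6.87 ± 0.24 in WT. It differed from WT by -0.11 ± 0.19 in Pap and by -0.35 ± 0.19 in InvEE, and all its group ranges overlapped, so the lower level of Gng13 in transgenic skin rests on the main probe set alone. The other Iqgap2 probe set had means of 5.80 ± 0.61 in Pap, 5.82 ± 0.48 in InvEE and 6.99 ± 0.77 in WT, with differences from WT of -1.19 ± 0.40 in Pap and -1.17 ± 0.40 in InvEE. These had the sign of the main probe set (-2.83 in Pap and -2.39 in InvEE) but were smaller, and the groups overlapped. The Pap and InvEE means of Iqgap2 were dim on both probe sets.

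**Figure D3:**
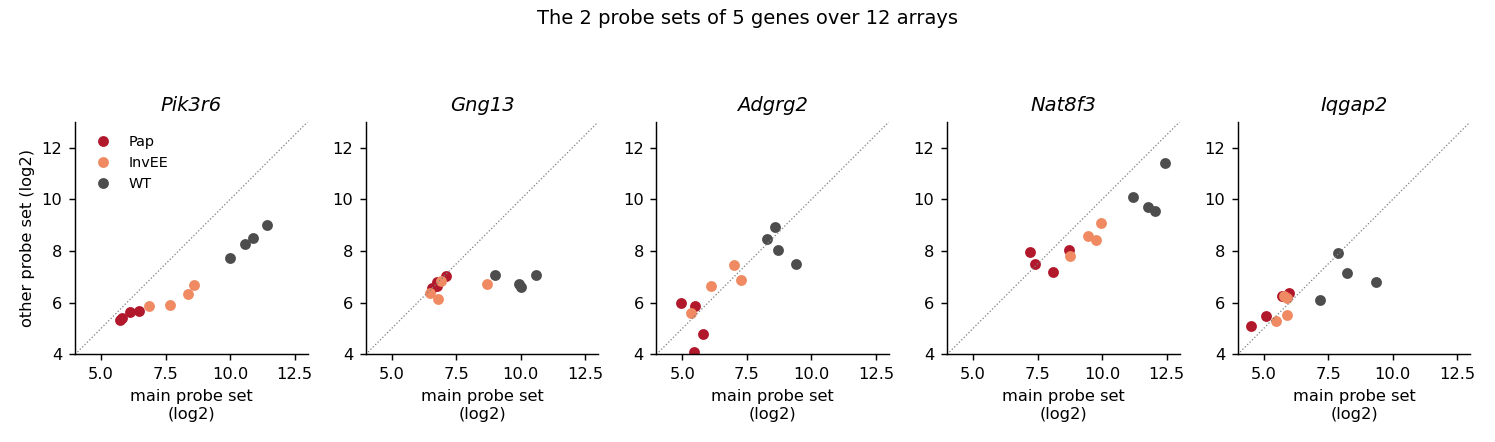
Normalized log2 values of the other probe set (vertical) against the main probe set (horizontal) of 5 genes on the 12 arrays, coloured by group, with the line of equal values dotted. Pik3r6, Adgrg2 and Nat8f3 separate WT from transgenic arrays on both axes, whereas the other probe set of Gng13 stays between 6.13 and 7.09 on all arrays.

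RefSeq's promoter table (GRCm38.p6) held 5 of the 7 genes, all but Pik3r6 and Slc6a7. The 100 bases before the listed start are shown for C1qtnf3, the gene that rose in Pap, and Nat8f3, which fell, because these are the called genes with an entry. Capitals mark the letters TATAAA, searched on both strands. The C1qtnf3 stretch is chr15:10952232-10952331 on the plus strand, and the Nat8f3 stretch is chr6:85765745-85765844 on the minus strand. These listed starts need not be the outer ends of the genes. RefSeq's gene positions begin C1qtnf3 at 10952119, so its printed stretch lies inside the gene as listed there. The windows of Adgrg2 and Iqgap2 lie inside their genes too, and the Nat8f3 stretch crosses the gene's edge at 85765767.
C1qtnf3: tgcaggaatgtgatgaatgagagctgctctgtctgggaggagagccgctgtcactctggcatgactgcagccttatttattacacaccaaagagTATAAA
Nat8f3: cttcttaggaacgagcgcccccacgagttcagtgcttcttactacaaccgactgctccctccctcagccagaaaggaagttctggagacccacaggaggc
C1qtnf3 carried TATAAA directly before its listed start, and none of the other 4 genes had it within 250 bases before a start. It stood in such a window in 12.4% of 32851 promoters. The AP-1 motif TGANTCA, also searched on both strands, was in no window of the 5 genes and in 6.75% of all. Within 250 bases there were 6 CpG dinucleotides for C1qtnf3, 8 for Nat8f3, 26 for Adgrg2, 33 for Iqgap2, and 2 and 25 for the 2 starts of Gng13, against a median of 6 over all promoters. These matches are descriptions of letters and not of binding.

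Relatives of the 7 genes were read from lists chosen for their families and pathways. Of 14 measured subunits and regulators of phosphoinositide 3-kinase, Pik3r6 was the 1 gene lower in Pap against InvEE and 0 were higher, with a list median of 0.07 against 0.12 for all genes (limma; 1 higher and 1 lower at an unadjusted p under 0.05). Pik3cg, the catalytic partner of Pik3r6, was dim in all groups, with means of 5.91 in Pap, 5.79 in InvEE and 5.98 in WT. Pik3r5, the other adaptor of that kinase, stood at 7.09 in Pap, 7.12 in InvEE and 7.08 in WT, a Pap minus InvEE difference of -0.03 ± 0.19 (SE; limma, adjusted p = 0.924). Of 16 beta and gamma subunits of G proteins 1 rose and 0 fell in Pap against InvEE, with a list median of 0.24 (limma; 4 higher and 1 lower at an unadjusted p under 0.05). It was Gng11, a widely expressed gamma subunit, which read 11.11, 11.47, 10.98 and 10.65 in Pap, 9.51, 9.88, 9.38 and 9.30 in InvEE, and 9.49, 9.20, 9.97 and 9.20 in WT, a rise of 1.54 ± 0.22 over InvEE (SE; limma, adjusted p = 0.00178).

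Of 25 adhesion receptors 3 rose and 0 fell in Pap against InvEE (list median 0.08; limma; 3 higher and 3 lower at an unadjusted p under 0.05). Adgrl3, a latrophilin, rose by 2.43 ± 0.24 (SE; limma, adjusted p = 0.000138), to 8.92 in Pap, against 6.49 in InvEE and 5.13 in WT. Adgrf5, known from lung epithelium and endothelium, rose by 2.77 ± 0.32 (limma, adjusted p = 0.000405), to 8.53 in Pap, against 5.76 in InvEE and 5.85 in WT. Adgrl4, known from endothelium, rose by 1.39 ± 0.36 (limma, adjusted p = 0.0366), to 6.86 in Pap, against 5.47 in InvEE and 5.50 in WT. Of 11 endothelial markers 0 were called in this comparison (limma; 1 higher and 0 lower at an unadjusted p under 0.05). Their mean log2 level was 5.89 to 6.44 on Pap arrays, 5.74 to 6.33 on InvEE arrays and 5.79 to 6.17 on WT arrays. Of the 11 markers 8 were dim in Pap, 10 in InvEE and 9 in WT, with Pecam1, Cdh5 and Kdr dim in all groups. Cldn5 was dim in InvEE only, and Erg in InvEE and WT but not in Pap. The part of endothelial markers in the rise of Adgrf5 and Adgrl4 was not tested.

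Of 17 genes of proline transport and metabolism 1 rose and 0 fell (list median 0.21; limma; 4 higher and 1 lower at an unadjusted p under 0.05). P4ha3, an alpha subunit of the prolyl hydroxylases that modify collagen, read 11.00, 11.44, 10.43 and 10.32 in Pap, 7.16, 6.22, 7.24 and 6.54 in InvEE, and 6.69, 6.74, 6.37 and 6.52 in WT. All Pap arrays stood far above the others, a rise of 4.01 ± 0.28 over InvEE (SE; limma, adjusted p = 1.15e-05). Of 18 transporters of the Slc6 family 4 rose and 0 fell (list median 0.24; limma; 7 higher and 1 lower at an unadjusted p under 0.05). Slc6a17, a vesicular amino acid transporter, rose by 1.54 ± 0.25 (SE; limma, adjusted p = 0.00404), Slc6a8, the creatine transporter, by 0.73 ± 0.17 (limma, adjusted p = 0.0282), and Slc6a11 and Slc6a13, both GABA transporters, by 0.54 ± 0.13 and 0.54 ± 0.15 while dim in all groups (limma, adjusted p = 0.0327 and 0.0487).

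Of 12 C1q and TNF related proteins C1qtnf3 and C1qtnf6 rose and 0 fell in Pap against InvEE (list median 0.24; limma; 3 higher and 1 lower at an unadjusted p under 0.05). C1qtnf6 read 11.75, 11.40, 11.35 and 11.52 in Pap, 9.44, 9.39, 10.69 and 10.67 in InvEE, and 11.00, 10.50, 10.80 and 10.94 in WT. As with C1qtnf3, its mean was lowest in InvEE, but its InvEE and WT arrays overlapped. The InvEE minus WT difference of C1qtnf6 was -0.76 ± 0.30 and was not called (SE, limma, adjusted p = 0.248). In Pap it rose by 1.46 ± 0.30 over InvEE (SE, limma, adjusted p = 0.0132). Of 7 genes of the N-acetyltransferase 8 family Nat8f3 was the 1 that fell and 0 rose (list median -0.30; limma; 0 higher and 2 lower at an unadjusted p under 0.05). Of 7 IQGAP scaffolds and partners 0 were called by limma, and 0 had an unadjusted p under 0.05. Iqgap1 stood at 10.74 in Pap, 10.83 in InvEE and 10.67 in WT, a Pap minus InvEE difference of -0.09 ± 0.14 (SE; limma, adjusted p = 0.696).

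**Figure D4:**
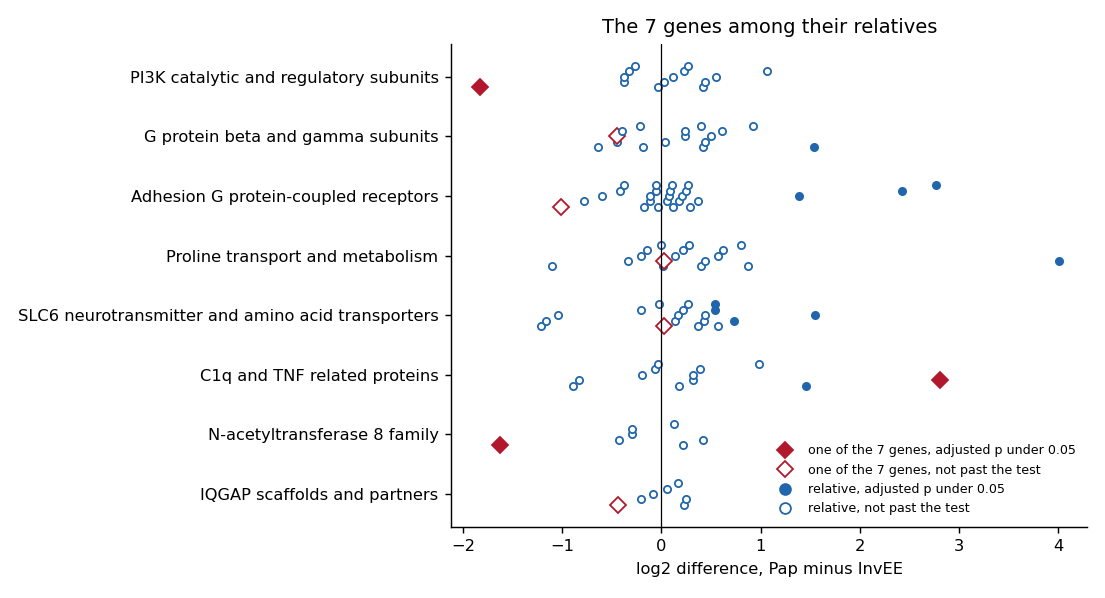
Log2 difference of Pap minus InvEE for each measured gene of 8 family and pathway lists. Diamonds are the 7 genes, circles their relatives, and filled symbols passed an adjusted p of 0.05 (limma). Pik3r6 (-1.83) and Nat8f3 (-1.63) stand at the low end of their lists, and P4ha3 (4.01) is the highest relative.

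The genes most like each of the 7 were those with the smallest root mean square difference of log2 values over the 12 arrays, each gene first centred on its own mean. Pik3r6 and Nat8f3 were closest to each other, at 0.427, and the 2 nearest genes outside the 7 were the same for both. Kcnj8, a potassium channel subunit and a pericyte marker, differed by 0.575 from Pik3r6 and 0.58 from Nat8f3, and Cdh4, a cadherin, by 0.687 and 0.543. Kcnj8 had means of 7.07 in Pap, 9.22 in InvEE and 11.08 in WT, and Cdh4 of 6.54 in Pap, 8.75 in InvEE and 10.24 in WT.

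Of 11 pericyte and smooth muscle markers 5 fell in Pap against InvEE and 0 rose (limma; 5 lower and 0 higher at an unadjusted p under 0.05), namely Kcnj8, Cspg4, Notch3, Ndufa4l2 and Cox4i2. Their mean log2 level was 6.94 to 7.38 on Pap arrays, 7.67 to 7.92 on InvEE arrays and 8.02 to 8.18 on WT arrays. Between InvEE and WT these markers went both ways: Kcnj8 and Ndufa4l2 were called lower and 0 higher (limma; 4 lower and 3 higher at an unadjusted p under 0.05), with a list median of -0.05 against -0.09 for all genes. Rgs5, a defining pericyte marker, was dim in InvEE and WT and not in Pap, and Higd1b was dim in all groups. Their part in the result was not tested. Adipogenic markers also ran lowest in Pap, at 6.50 to 6.77 on Pap arrays, 7.07 to 7.91 on InvEE arrays and 7.00 to 7.30 on WT arrays. Of these 10 genes Cebpa and Fabp4 fell in Pap against InvEE and 0 rose (limma; 3 lower and 1 higher at an unadjusted p under 0.05), Adipoq, Cidec and Lep were dim in all groups, and their part was not tested. Keratinocyte markers ran at 6.68 to 8.12 in Pap, 7.47 to 8.59 in InvEE and 6.45 to 6.75 in WT. Of 14, Krt15 was called lower in Pap against InvEE and 0 higher (limma, 6 lower and 1 higher at an unadjusted p under 0.05). In InvEE against WT Krt15 and Perp were called higher and 0 lower (limma, 8 higher and 0 lower at an unadjusted p under 0.05). Dim were 6 in Pap, 3 in InvEE and 9 in WT, with Cdh1, Krt17 and Lor dim in all groups. Myofibroblast markers ran in the opposite order to Pik3r6 and Nat8f3, at 10.72 to 10.95 in Pap, 9.45 to 9.76 in InvEE and 8.08 to 8.86 in WT, with 5 of 11 higher in Pap against InvEE and 0 lower (limma; 8 higher and 0 lower at an unadjusted p under 0.05) and Cnn1 dim in InvEE and WT. The part of these 2 lists was not tested either.

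The nearest genes to C1qtnf3 were Sema4f, a semaphorin (0.734), and Ifit2, an interferon-induced gene (0.827), both lowest in InvEE. Sema4f averaged 8.62 in Pap, 6.30 in InvEE and 7.65 in WT, and Ifit2 7.86 in Pap, 6.77 in InvEE and 8.0 in WT. For Adgrg2 they were Osr2, a transcription factor (0.406), and Cyp27a1, a sterol hydroxylase (0.513). For Gng13 they were 2310034O05Rik (0.595) and Plin4, a lipid droplet protein (0.603). Slc6a7 lay nearest to Duoxa1, a maturation factor of dual oxidase (0.649), and Casp4, an inflammatory caspase (0.668), and Iqgap2 to Clec3b, which encodes tetranectin (0.529), and Dock4, a Rac activator (0.564).

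Within the 7 genes C1qtnf3 stood farthest from the rest, 1.425 to 2.376 from each, whereas the other pairs differed by 0.427 to 1.178. The mean profile of all 7 genes was closest to Plin4 (0.394), the dual oxidase Duox1 (0.438), Zfhx2os (0.477), the muscle kinase Speg (0.5) and Duoxa1 (0.53). All 12 arrays entered these measures, so they reflect the group differences that chose the genes.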

How the data were processed

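Sorted fibroblasts were measured on 12 Affymetrix arrays, 1 per sample, and grouped by the sample titles. The deposited log2 values, 1 per probe set and array, spanned 2.08 to 14.96. Limma is named in the submitters' processing notes. How the authors summarized, background-corrected and normalized the probes is not given in the sources used here. Lower quartiles of the deposited arrays spanned 0.284, so quantile normalization was applied. Of 45101 probe sets, 64 controls were left out, and 34945 had 1 symbol in the platform annotation. Each gene was represented by its brightest probe set (highest mean of the 12 arrays), and no dim genes were removed. One limma model (3.58.1 in R 4.3.3) with 3 group means covered every array, two-sided, with Benjamini-Hochberg adjustment over 18193 genes, and was tested on simulated data. Alternatives varied the normalization, filter, arrays, block, weights and a spike covariate. The 7 genes and the lists were chosen with earlier results of these data known. Named besides the 7 were the 2 genes nearest each, the 5 nearest their mean profile, and up to 4 called genes per family list; Pik3cg, Pik3r5, Iqgap1 and the cell type markers were named outside this rule. No 2 arrays shared more than 0.253% of identical values, so none was a copy of another. Each array was counted as a replicate, although repeats of the same animal would also pass this check. Replicate numbers were not taken as pairs, since 2 of 12 same-numbered pairs had correlated deviations over 0.1. However, 6 of the 12 arrays correlated best with an array of their own number, so some pairing is possible. Results with the replicate number as a block are given below.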

Additional observations from a re-analysis of the deposited data

Results flagged for a closer look

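Slc6a7 on InvEE array 3 had a log2 value of 6.89, far from the other 3 InvEE arrays, which lay between 9.08 and 9.35. Its gap to the nearest of them was 0.889 of the group's whole range, above Dixon's critical value of 0.829. It was the 1 such sample among 36 groups of 4 arrays (12 probe sets in 3 groups), and chance gives about 1 in 20.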

How the results depend on the processing

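The falls of Pik3r6 and Nat8f3 in Pap against InvEE kept their sign in every setting run and were called in each of 8 other settings that left out no replicate and kept the main probe set (limma, adjusted p at most 0.0371 and 0.0496). The count of members called lower, 2, was 0 at a threshold of 0.01 (limma; 3 members lower at an unadjusted p under 0.05), 1 (Nat8f3; Pik3r6 was lost) with probe sets free of an _x_ or _s_ suffix, and between 0 and 3 with 1 array left out (0 without InvEE array 1, where 2 were lower at an unadjusted p under 0.05; 1 without Pap array 2, Pap array 3 or InvEE array 4; 3 without InvEE array 3). Member probe sets called lower, 2, ranged from 0 (without InvEE array 1 or 4) to 3 (without InvEE array 3), with 1 without Pap array 2 or 3. Genes called in Pap against InvEE numbered 1221, and 9209 with the ribosomal shift, 2813 with array weights, 259 with the spike covariate, 396 at 0.01 and 578 to 1581 with 1 array left out (578, 621 and 716 without InvEE array 1, 2 or 4). Pap against WT gave 1756, and 1094 from its own 8 arrays, 757 at 0.01 and 1259 to 1792 with 1 array left out. InvEE against WT gave 97, and 62 as deposited, 60 at a common median, 57 with the replicate block, 839 with array weights, 0 with the spike covariate (limma; 2206 genes at an unadjusted p under 0.05), 0 at 0.01 (2837 likewise) and 0 to 249 with 1 array left out (0 without InvEE array 1 or 2 or WT array 1, with 2222, 1967 and 2358 genes at an unadjusted p under 0.05; 13 without WT array 2, 44 without InvEE array 3, 49 without Pap array 2, 55 without Pap array 3, 249 without Pap array 4). Signs turned for Gng13 with the ribosomal shift (0.09), without InvEE array 4 (0.05; -0.69 to 0.05 over all such fits) and on its other probe set (0.25), for Iqgap2 with the ribosomal shift (0.09), and for Slc6a7 as deposited (0.00), with array weights (-0.19) and in 4 fits that left out 1 array (range over 12 such fits -0.56 to 0.26); none of these was called before or after. The replicate block gave 2 members called lower in Pap against InvEE and changed no member's call in that comparison or in Pap against WT, while in InvEE against WT Adgrg2, Slc6a7 and Iqgap2 lost theirs (limma, adjusted p = 0.0532 each). The same-numbered arrays' deviations correlated at -0.094 to 0.177, and of the 12 arrays 6 correlated best with an array of their own number. No detection calls were used, and levels under 6.73 may not resolve a further fall.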
